A study of Mus musculus with 8 samples.

Results

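Pdgfra, F3, Foxl1, Sox6, Dll1 and Frzb are used as markers of the fibroblasts that lie directly beneath the intestinal epithelium, among them telocytes. Pdgfra is not confined to these cells, since deeper fibroblasts also carry PDGFRα at a low level. The markers were taken by gene symbol, and are 6 of the 53801 genes listed in the series. The libraries held RNA of CD45-negative, CD31-negative stromal cells sorted from the ulcerated small intestine of LTβR-YFP mice, a reporter line named for the lymphotoxin beta receptor. All mice had received indomethacin, which blocks cyclooxygenases and causes ulcers in the small bowel, so no untreated group was compared. Cells were sorted into YFP-positive and YFP-negative fractions, and each fraction gave 4 libraries with replicate numbers from 1 to 4. The allele behind the reporter, its relation to Ltbr expression, and the age, sex and strain of the mice are not stated in the sources used here. Since no label says that each library is a separate mouse, the p-values cover only the spread between these samples, which may be technical.

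Subepithelial fibroblasts with high PDGFRα form a sheath along crypts and villi, and telocytes are the members of this sheath with long thin processes. They are known as a source of BMP ligands and of non-canonical Wnt ligands for the neighbouring epithelium. Deeper fibroblasts with low PDGFRα, called trophocytes, secrete BMP antagonists and R-spondins near the crypt base. Pdgfra encodes a receptor tyrosine kinase for PDGF, and F3 encodes tissue factor (CD142), the cell surface receptor that starts coagulation. Foxl1 and Sox6 encode transcription factors of the forkhead and SoxD families. Dll1 encodes a membrane-bound ligand of Notch receptors, and Frzb a secreted frizzled-related protein that binds Wnt.

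Total counts per library ranged from 12481608 to 29385718, and 15945 genes passed the count filter. Both libraries of replicate number 2 stood apart on the first principal component (35.5% of the variance), at 78.7 and 92.5 against -46.2 to -12.4 for the other libraries. In 4 of 4 pairs of equal number, the share of mitochondrially encoded genes was smaller in YFP-positive cells. The fibroblast genes Col1a1 and Dcn averaged 8565 and 6083 CPM (normalised counts scaled to a common library size) in YFP-negative cells and 6416 and 4546 CPM in YFP-positive cells. Ptprc, which encodes CD45, averaged 2.60 and 5.52 CPM in the same order, and Pecam1, which encodes CD31, 25.9 and 28.6 CPM. Because whole sorted fractions were measured, fewer cells of a type and less RNA per cell cannot be told apart.

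Of the 6 markers, 5 held 49.2 CPM or more in every library, and Foxl1 was listed at 0 counts in all 8 libraries. None of the 5 tested markers was called higher or lower in YFP-positive cells by edgeR's quasi-likelihood test, with or without the replicate number as a block. Without the block 0% of the 15945 genes tested were called, and 325 had an unadjusted p under 0.05, while DESeq2 called 2 genes, both lower. With the block, edgeR called 111 genes higher (0.696%) and 253 lower (1.59%). The groups overlapped for each of the 5 markers, as they did for all but 1.55% of the genes tested. Of all tested genes 8.86% were higher in YFP-positive cells in each of the 4 pairs, and no marker was among them. With only 5 markers and shares this small, neither result sets the markers apart from other genes. Sox6 came nearest to a call, and the 5 markers differed far more between replicate numbers than between YFP-positive and YFP-negative cells.

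**Figure D1:**
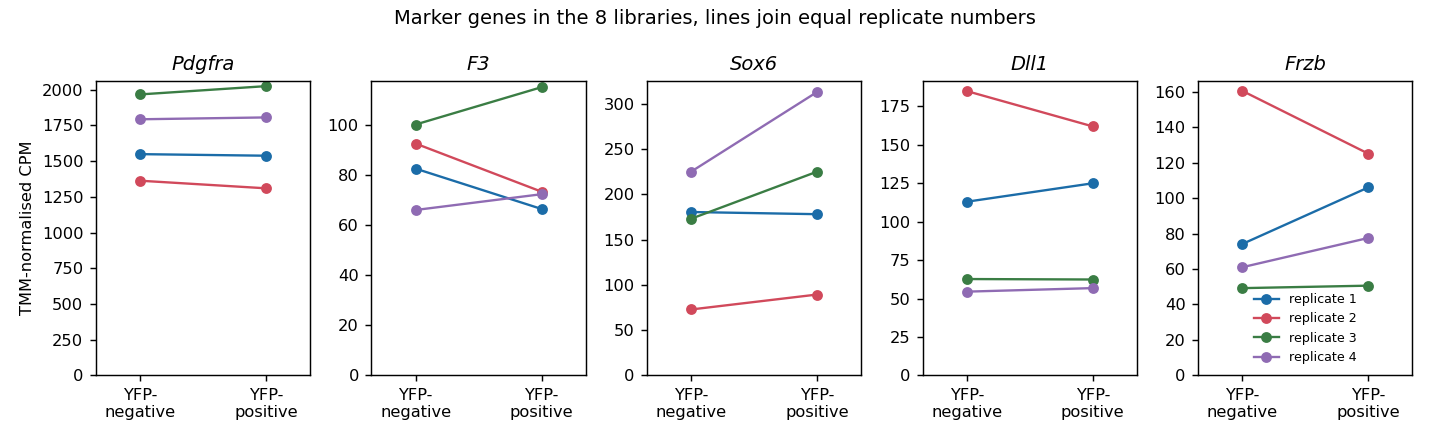
TMM-normalised CPM of the 5 measured markers in each library, on axes from 0, with YFP-negative and YFP-positive libraries of equal replicate number joined by a line. Pdgfra lies between 1309.8 and 2025 CPM, and the groups overlap in every panel. The replicate 2 pair is lowest for Pdgfra and Sox6 and highest for Dll1 and Frzb.

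RefSeq promoter windows of build GRCm38.p6, from 250 bases before to 50 bases after a RefSeq start, matched 5 of the 6 markers. For Pdgfra, Dll1 and Frzb that start differs from the end of the GENCODE gene span given further below. The Frzb window lies mostly within the GENCODE span of the gene. They were searched on both strands for 6 motifs of pathways tied to these genes or to the lymphotoxin receptor: AP-1 (TGANTCA), a κB-like site (GGANNTTCC), SOX (AACAAT), GLI (TGGGNGGTC), forkhead (TGTTTAC) and RBPJ, the DNA-binding partner of Notch (TTCCCAC). The windows of F3 and Frzb are shown because each held matches of different motifs. The Dll1 window with a match is shown because Dll1 tracked Frzb across libraries, and that of Pdgfra because it held no match and its level was the steadiest. Each is given 5′ to 3′ on the gene's strand, with motif matches in capitals. F3 lies at chr3:121723287-121723586 (plus strand), Dll1 at chr17:15376883-15377182 (minus strand), Frzb at chr2:80447347-80447646 (minus strand) and Pdgfra at chr5:75152001-75152300 (plus strand).
F3: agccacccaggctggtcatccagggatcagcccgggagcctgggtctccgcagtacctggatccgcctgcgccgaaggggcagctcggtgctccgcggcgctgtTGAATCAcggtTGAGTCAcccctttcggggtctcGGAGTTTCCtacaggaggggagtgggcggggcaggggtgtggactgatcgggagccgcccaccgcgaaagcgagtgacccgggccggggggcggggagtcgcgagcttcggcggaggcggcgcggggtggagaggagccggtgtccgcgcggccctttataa
Dll1: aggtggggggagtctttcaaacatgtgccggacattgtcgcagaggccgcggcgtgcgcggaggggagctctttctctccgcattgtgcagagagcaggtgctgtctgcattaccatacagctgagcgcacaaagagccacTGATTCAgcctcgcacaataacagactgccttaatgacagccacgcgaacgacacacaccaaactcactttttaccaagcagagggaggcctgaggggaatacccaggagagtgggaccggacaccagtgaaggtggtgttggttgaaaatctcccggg
Frzb: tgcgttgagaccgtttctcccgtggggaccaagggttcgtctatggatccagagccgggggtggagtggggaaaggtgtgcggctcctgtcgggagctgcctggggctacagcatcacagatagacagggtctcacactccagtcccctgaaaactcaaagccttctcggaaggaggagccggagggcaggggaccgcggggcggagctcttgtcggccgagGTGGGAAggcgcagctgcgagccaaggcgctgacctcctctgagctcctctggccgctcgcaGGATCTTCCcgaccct
Pdgfra: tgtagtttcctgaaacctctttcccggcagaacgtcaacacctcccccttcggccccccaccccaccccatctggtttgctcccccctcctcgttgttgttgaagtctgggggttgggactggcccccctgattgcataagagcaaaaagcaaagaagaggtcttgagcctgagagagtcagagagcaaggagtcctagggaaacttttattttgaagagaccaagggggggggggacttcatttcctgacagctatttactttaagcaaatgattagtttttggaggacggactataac

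The F3 window held AP-1 matches that began at -146 and -135 relative to the RefSeq start of the window, and a κB-like match at -112. Dll1 had 2 windows, of which the one shown held an AP-1 match at -109 and the other held no match. Frzb held an RBPJ match on the reverse strand at -28 and a κB-like match at 34, after the RefSeq start. Both positions are counted from that start and not from the GENCODE gene end. None of these matches overlapped another. Sox6 had 6 windows, of which 1 held a pair of SOX matches on opposite strands. Of all 32851 windows of this length, 7.81% held the AP-1 letters, 4.26% the κB-like letters, 6.38% RBPJ, 10.7% SOX, 0.977% GLI and 3.65% forkhead. A match is a description of the letters, not a binding site.

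Foxl1, the forkhead factor used to define telocytes, had 0 counts in every YFP-negative and every YFP-positive library. It is a gene of 1 exon at chromosome 8, 121127940 to 121130644 (GRCm38, GENCODE M21, plus strand, ENSMUSG00000097084). It lies wholly within the span of Gm20388, an annotated gene at 119910841 to 124345722 on the same strand that held 67780 counts over the 8 libraries, and shares no exon with it. All 36 protein-coding genes on the plus strand within Gm20388 were listed at 0 in all libraries, against 1 of the 35 on the minus strand. The 36 include Cox4i1, a subunit of cytochrome c oxidase, Rpl13, a ribosomal protein, and Foxf1, the forkhead factor of gut mesenchyme, which were picked after their values were seen. Across the annotation, 450 of 456 protein-coding genes inside another gene of the same strand were at 0 (98.7%), against 194 of 821 inside a gene of the opposite strand (23.6%) and 3191 of 20690 inside no other gene (15.4%). Among same-strand genes that share no exon with the surrounding gene, as Foxl1, 256 of 260 were at 0. The 0 for Foxl1 is therefore shared with genes that cells in general use, and gives neither a level nor an upper limit for Foxl1 in either group.

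**Figure D2:**
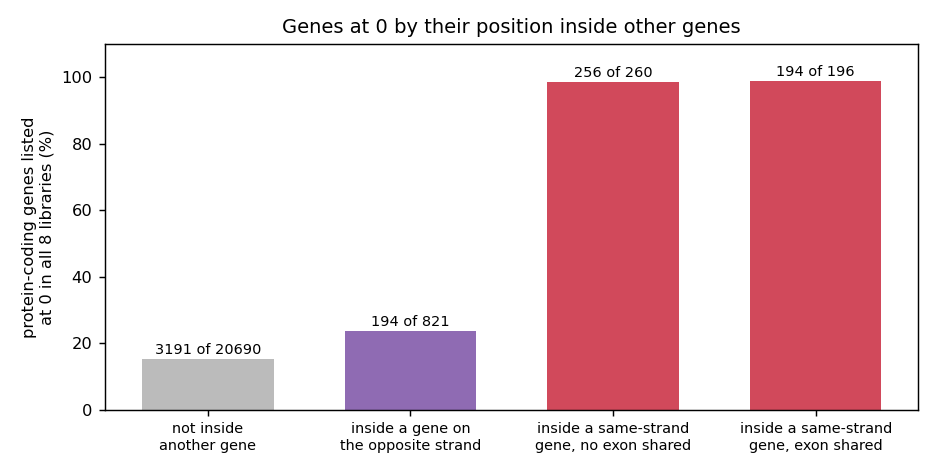
Percentage of protein-coding genes listed at 0 counts in all 8 libraries, by position relative to other genes in the annotation. Bars are 15.4% for genes inside no other gene, 23.6% for those inside a gene of the opposite strand, and 98.5% and 99.0% for those inside a gene of the same strand without and with a shared exon; Foxl1 belongs to the 98.5% bar.

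Levels between genes were compared per kilobase of annotated exon and per kilobase of whole gene span. Pdgfra was the highest, at 166 ± 26.8 CPM per kb (SD, n = 8). F3 stood at 33.1 ± 7.01, Frzb at 27.2 ± 12.2, Dll1 at 24.3 ± 12.2 and Sox6 at 12.3 ± 5.19 CPM per kb of exon. Pdgfra did not overlap with any other marker, since its lowest library held 131 CPM per kb of exon and the highest F3 library 45.6. F3, Frzb and Dll1 lay within one another's spread, and the order among them is not resolved; the Sox6 libraries (4.91 to 21.1 CPM per kb) lay below those of F3 and overlapped those of Dll1 and Frzb. The order also depends on the length used. The sources used here do not say whether reads were counted over exons or over whole gene spans. Same-strand genes that share no exon with the surrounding gene were at 0 in 256 of 260 cases. Exon length may therefore not be the length over which reads were counted, and the exon scale is to be read with that limit. Exons make up 2.61% of the 567925 bp span of Sox6, 9.08% of the Frzb span and 44.3% of the Dll1 span. Per kilobase of whole gene span, Pdgfra (36.3 CPM per kb) remained first, followed by Dll1 (10.8), F3 (7.26), Frzb (2.47) and Sox6 (0.321). The libraries of Dll1 (5.72 to 19.5) and F3 (5.73 to 10) overlapped on this scale, and Dll1 was the lower in 4 of 8 libraries, so their order is not resolved either.

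**Figure D3:**
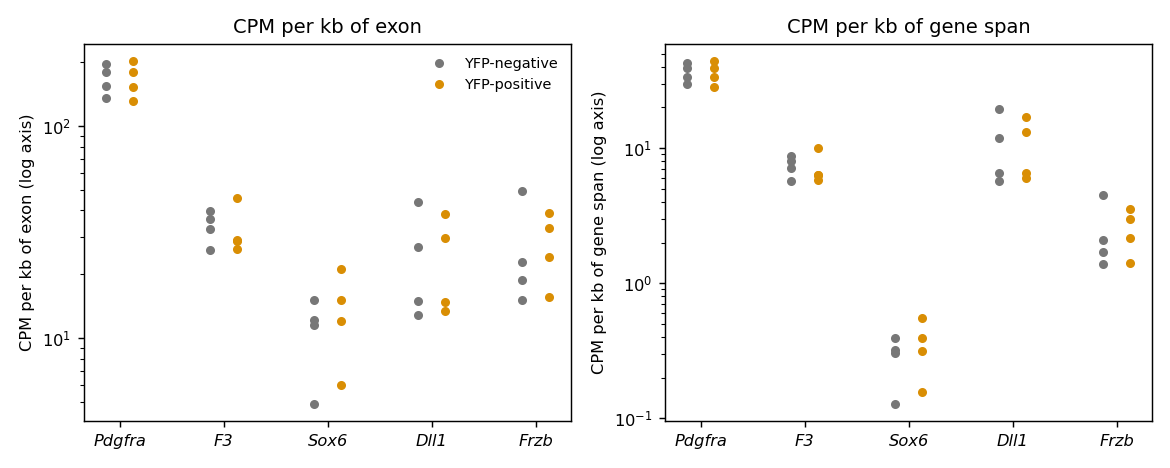
Level of each measured marker in CPM per kilobase, on log axes, per kilobase of exon and per kilobase of whole gene span, with 1 point per library. Pdgfra is first on both scales; per kb of span the libraries of Dll1 (5.72 to 19.5) and F3 (5.73 to 10) overlap.

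Pdgfra, the receptor, showed no difference between the groups beyond its spread. It is located at chromosome 5, 75152292 to 75198215 (plus strand, ENSMUSG00000029231). Its level was 1549, 1363, 1967 and 1793 CPM in YFP-negative replicates 1 to 4, and 1538, 1309.8, 2025 and 1806 CPM in YFP-positive replicates 1 to 4. Each YFP-positive library lay close to the YFP-negative library of the same number, and replicate 2 was lowest and replicate 3 highest in both groups. The means were 1668 ± 266 and 1669.8 ± 312 CPM (SD, n = 4). The log2 difference of YFP-positive from YFP-negative was 0.00154 (SE 0.194) without the block and -0.003653 (SE 0.0585) with it (adjusted p = 0.99985 and 0.99251, edgeR). With the block the 95% confidence interval of the fold ran from 0.915 to 1.087. The antisense transcripts Gm42802 and Gm42803 within the Pdgfra locus held 53 and 58 counts, against 297478 for Pdgfra.

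F3, the tissue factor gene, likewise showed no difference that passed the test. It lies at chromosome 3, 121723537 to 121735048 (plus strand, ENSMUSG00000028128) and overlaps no other gene. Its level was 82.5, 92.5, 100.1 and 66.0 CPM in YFP-negative replicates 1 to 4 and 66.4, 73.3, 115 and 72.3 CPM in YFP-positive replicates 1 to 4. The YFP-positive library was the lower of pairs 1 and 2 and the higher of pairs 3 and 4, and YFP-positive replicate 3 was the highest of all. Means were 85.3 ± 14.7 and 81.8 ± 22.5 CPM (SD, n = 4). With the block the log2 difference was -0.08 (SE 0.0977, fold 0.822 to 1.10 at 95% confidence, adjusted p = 0.89019, edgeR).

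Sox6, the SoxD transcription factor, had the largest difference of the 5 measured markers. It spans chromosome 7, 115470872 to 116038796 (minus strand, ENSMUSG00000051910). The YFP-negative libraries 1 to 4 held 180.4, 72.8, 173 and 225 CPM, and the YFP-positive libraries 178, 89.3, 225 and 313 CPM. Pair 1 was level, pairs 2 to 4 were higher in the YFP-positive library, and the spread between numbers was wide enough for the groups to overlap. The log2 differences within pairs 1 to 4 were -0.02, 0.29, 0.38 and 0.48. Means were 163 ± 64.2 and 201 ± 93.4 CPM (SD, n = 4). Without the block the log2 difference was 0.31 (SE 0.392, adjusted p = 0.99985, edgeR). With the block it was 0.28 (SE 0.08), a 1.218-fold higher level with a 95% interval of 1.083 to 1.37, and it did not pass the threshold (adjusted p = 0.091871, edgeR, 478th of 15945 genes by p). In the authors' deposited table Sox6 had a log2 fold change of 0.279 and an adjusted p of 0.0661, also above the threshold of 0.05. The call depended on the setting of the blocked fit: Sox6 passed with limma voom (adjusted p = 0.0067874), with library sizes alone (0.040312), with the loosest count filter (0.0081777) and without both libraries of replicate 1 (0.021946), and its adjusted p reached 0.48039 without those of replicate 4, by edgeR except for voom. The antisense transcripts Gm45025 and Sox6os within the locus held 21 and 4 counts, against 33666 for Sox6.

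Dll1, the Notch ligand, had nearly the same mean in both groups and differed widely among replicate numbers. It lies at chromosome 17, 15367354 to 15376872 (minus strand, ENSMUSG00000014773). YFP-negative replicates 1 to 4 held 113, 185, 62.7 and 54.5 CPM, and YFP-positive replicates 125, 162, 62.4 and 56.8 CPM. Replicate 2 was the highest and replicate 4 the lowest number in both groups. The highest library held 3.4 times the level of the lowest. Means were 104 ± 60.2 and 101 ± 50.5 CPM (SD, n = 4). With the block the log2 difference was -0.001357 (SE 0.0775, fold 0.891 to 1.12 at 95% confidence, adjusted p = 0.99773, edgeR). A930024N18Rik overlaps Dll1 by 1873 bp on the opposite strand and held 225 counts, against 16094 for Dll1.

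Frzb, the secreted Wnt-binding protein, was higher in 3 of 4 YFP-positive libraries by their pairs, but not beyond its spread. It lies at chromosome 2, 80411970 to 80447625 (minus strand, ENSMUSG00000027004) and overlaps no other gene. YFP-negative replicates 1 to 4 held 74.1, 160.4, 49.2 and 61.0 CPM, and YFP-positive replicates 106, 125, 50.6 and 77.5 CPM. Pairs 1 and 4 were higher in the YFP-positive library, pair 3 was nearly level and pair 2 was lower. Means were 86.2 ± 50.5 and 90.0 ± 32.8 CPM (SD, n = 4). The log2 difference with the block was 0.14 (SE 0.123, fold 0.913 to 1.328 at 95% confidence, adjusted p = 0.7978, edgeR).

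In the authors' deposited table the log2 fold changes of Pdgfra, F3, Dll1 and Frzb were -0.009, -0.082, -0.007 and 0.133, with adjusted p of 0.994, 0.965, 0.996 and 0.896. The authors' deposited table lists no fold change for Foxl1.

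**Figure D4:**
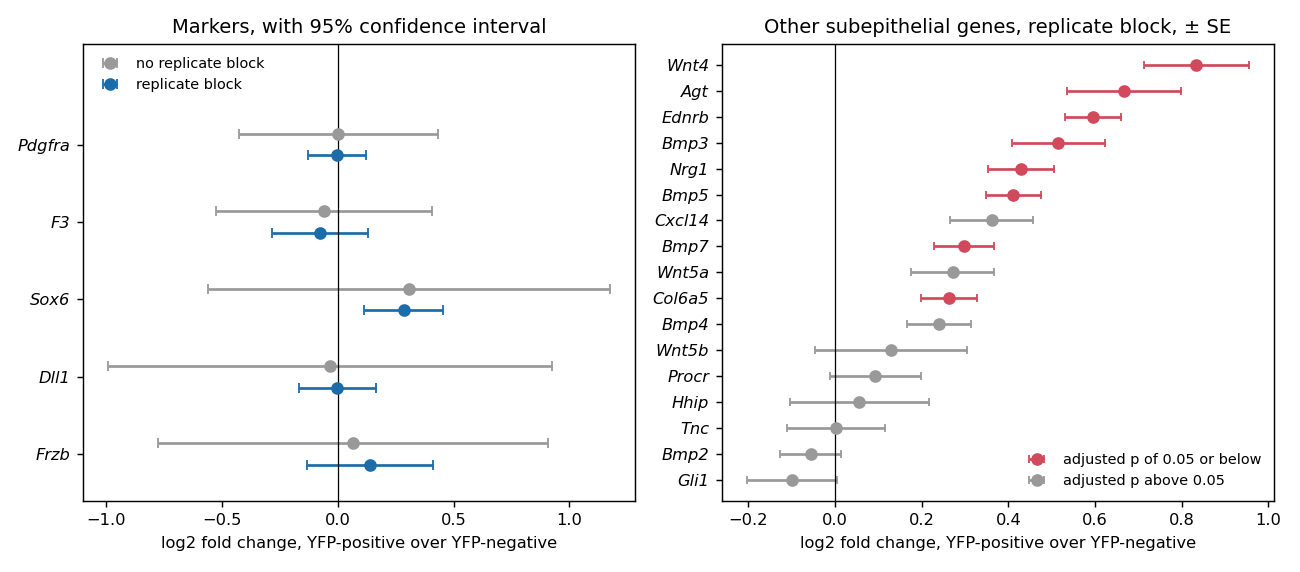
Log2 difference of YFP-positive from YFP-negative cells, for the 5 markers at left with 95% confidence intervals, without (grey) and with (blue) the replicate block, and at right for other subepithelial genes with a mean of at least 5 CPM, with the block, bars ± SE, red where the adjusted p was 0.05 or below. With the block the intervals of Pdgfra, F3, Dll1 and Frzb include 0, that of Sox6 runs from 0.11 to 0.45 before adjustment over all genes, and Wnt4 lies highest at 0.83.

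The replicate number accounted for 99.3% of the variance of log2 CPM for Pdgfra, 99.1% for Dll1, 93.4% for Sox6, 90.3% for Frzb and 77.7% for F3, with a median of 72.4% over all genes tested. YFP accounted for 0.00716% (Pdgfra), 2.05% (F3), 4.65% (Sox6), 5.98e-05% (Dll1) and 1.42% (Frzb), against a median of 4.35%. The replicate 2 libraries lay outside the range of the others for Pdgfra, Sox6, Dll1 and Frzb, and not for F3. The share of all tested genes that do the same was not counted. Since replicate 2 also stood apart on the first principal component, this is not shown to be particular to the markers. Pdgfra was 1309.8 to 1363 CPM in replicate 2 and 1538 to 2025 CPM elsewhere, which also enters the ratios to Pdgfra. Sox6 was 72.8 to 89.3 CPM in replicate 2 and 173 to 313 CPM elsewhere. Its mean log2 CPM in replicate 2 differed from that of the other libraries by -1.39, and 7.46% of tested genes had a lower difference. That share was 93.9% for Dll1, 92.0% for Frzb, 31.6% for Pdgfra and 51.8% for F3, so the differences of Pdgfra and F3 were ordinary among tested genes. Dll1 and Frzb averaged 2.20 and 2.05 times their level in the other libraries, Pdgfra 0.751 times and F3 0.99 times. What set replicate 2 apart was not tested.

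Over the 8 libraries, log2 CPM of Pdgfra ran opposite to that of Dll1 (Pearson r = -0.932) and Frzb (r = -0.93), while Dll1 and Frzb ran together (r = 0.888). Sox6 followed Pdgfra (r = 0.793) and ran opposite to Dll1 (r = -0.871). F3 was nearly unrelated to Sox6 (r = -0.115) and Dll1 (r = -0.106). These values describe 8 libraries that pair by number and include the distinct replicate 2, and carry no p.

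Each other marker was also set against Pdgfra within its library, a ratio that does not depend on how libraries are scaled against each other. Because deeper fibroblasts also carry PDGFRα, the ratio is not a level per subepithelial cell. Sox6 counts were 11.6%, 5.35%, 8.77% and 12.6% of Pdgfra counts in YFP-negative replicates 1 to 4, and 11.6%, 6.82%, 11.1% and 17.3% in YFP-positive replicates. The YFP-positive library was level with its partner in pair 1 and higher in pairs 2 to 4. The log2 difference of the group means was 0.29 (exact two-sided permutation p = 0.486 over 70 assignments, adjusted p = 0.971 over 4 ratios). F3 ranged from 3.68% to 6.79% of Pdgfra counts in YFP-negative and from 4.0% to 5.69% in YFP-positive libraries (exact permutation p = 0.743). Dll1 ranged from 3.04% to 13.6% and from 3.08% to 12.3% (exact permutation p = 0.971), and Frzb from 2.5% to 11.8% and from 2.5% to 9.58% (exact permutation p = 0.829). Each adjusted exact p was 0.971, and the smallest p these 70 assignments allow is 0.0286. That test does not use the pairing. Within pairs the log2 difference averaged 0.29 ± 0.204 for Sox6 (SD, n = 4 pairs), from -0.01 in pair 1 to 0.47 in pair 4 (exact sign-flip permutation p = 0.25, adjusted p = 0.833). The paired exact permutation p was 0.625 for F3, 0.875 for Dll1 and 0.5 for Frzb, and 4 pairs cannot give a p below 0.125. No ratio passed either test, and a p above the threshold does not show that the ratios were alike. The ratio of Foxl1 could not be formed.

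**Figure D5:**
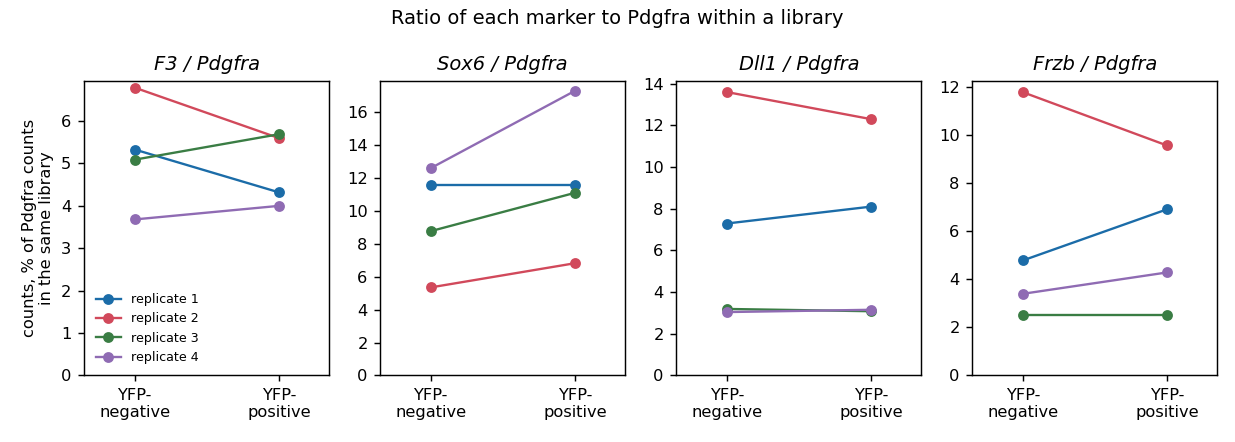
Counts of Sox6, F3, Dll1 and Frzb as a percentage of Pdgfra counts in each library, on axes from 0, with pairs of equal replicate number joined. Sox6 ranges from 5.35% to 17.3%, and the ratios of Dll1 and Frzb are highest in replicate 2 of both groups.

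The genes most like each marker were the 3 with the highest Pearson correlation of log2 CPM over the 8 libraries, among 10534 genes with a mean of at least 5 CPM. For Pdgfra these were Stk38 (r = 0.987), Ctr9 (0.982) and Tctn1 (0.978), and for F3 Kif1b (0.951), Bin3 (0.944) and Gli1 (0.936), the Hedgehog-responsive transcription factor. For Sox6 they were Syne2 (0.999), Anp32a (0.996) and Syne1 (0.995). Syne1 and Syne2 encode nesprins, which link the nucleus to the cytoskeleton. They are also long genes (530566 and 292793 bp), as is Sox6 (567925 bp), while Anp32a spans 37520 bp. The part of gene length in these correlations was not tested. For Dll1 they were Dusp5 (0.991), Zwint (0.99) and Csf3 (0.989), and for Frzb they included Fjx1 (0.986) and C77080 (0.976). With Spearman's rho in place of r, or without both libraries of a replicate number, between 0 and 2 of the 3 genes were kept for Sox6, 0 and 1 for F3, Dll1 and Frzb, and 0 for Pdgfra. In each of these settings 2 or 3 of the 3 genes stayed among the 100 most like. The rank of the nearest genes thus depends on the measure and on single replicate numbers, and no p is given.

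The genes around these markers were described by lists, chosen with earlier results of these data known. Calls were counted in the edgeR fit with the block, since without it 0 genes of any list were called. Over all genes tested the block gave 0.696% higher and 1.59% lower. Other PDGF genes gave 0 calls of 6 tested, with a median log2 difference of -0.38 against 0.00481 over all genes. That median is loosely determined, since the lowest differences had wide errors. They were those of Pdgfb (-1.507, SE 1.056), Pdgfc (-0.63, SE 0.297) and Pdgfrl (-0.61, SE 0.335), at 2.04, 9.62 and 5.4 CPM in YFP-negative cells. Pdgfrb, the second PDGF receptor, stood at 277 ± 63.5 and 297 ± 71.1 CPM (SD, n = 4; log2 0.10, SE 0.064). Of 8 tested tissue factor pathway genes 1 fell: Tfpi2, a serine protease inhibitor, from 19.3 ± 8.03 to 10.4 ± 3.72 CPM (log2 -0.87, adjusted p = 0.011434, edgeR with the block). Of 12 Hedgehog pathway genes 1 rose and 1 fell. Ptch1, the Hedgehog receptor, rose from 208 ± 43.7 to 269 ± 54.9 CPM (log2 0.37, adjusted p = 0.003946, edgeR with the block), and Boc, a coreceptor, fell from 79.5 ± 17.4 to 58.0 ± 9.04 CPM (log2 -0.44, adjusted p = 0.016937, edgeR with the block). Of 6 SOX genes and 18 Notch pathway genes tested, 0 were called, with medians of -0.13 and 0.08. Of 7 tested secreted Wnt antagonists 1 fell: Sfrp1, of the same family as Frzb, from 1803 ± 475 to 1467 ± 375 CPM (log2 -0.30, adjusted p = 0.016877, edgeR with the block).

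Other genes of subepithelial fibroblasts and telocytes, in a list chosen with results of these data known, gave 8 higher and 0 lower calls of 19 tested in the blocked fit, where 0.696% of all genes tested were called higher and 1.59% lower, with a median log2 difference of 0.26. Ednrb, the endothelin type B receptor, was at 209 ± 49.7 CPM in YFP-negative and rose to 313 ± 61.3 CPM in YFP-positive cells (SD, n = 4; log2 0.59, adjusted p = 0.0001375, edgeR with the block). Wnt4, a Wnt ligand, rose from 23.9 ± 4.34 to 43.6 ± 13.1 CPM (log2 0.83, adjusted p = 0.0013191, edgeR with the block). The count was 9 without both libraries of replicate 2, and 4, 3 and 4 without those of replicates 1, 3 and 4. Whether the 5 measured markers differ from the genes of this list in their response was not tested.

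Counts for markers of other stromal cells stand against the same shares of 0.696% and 1.59%. Their lists were likewise chosen with earlier results of these data known, so the counts are a description. Of 10 tested trophocyte and adventitial markers 7 fell and 0 rose in the blocked edgeR fit, with a median log2 difference of -0.59. In 4 of 4 pairs their summed level was lower in YFP-positive cells. The same held for the pan-fibroblast, pericyte, enteric glia, SOX and secreted Wnt antagonist lists, so it is not particular to trophocytes. For smooth muscle, interstitial cells of Cajal and leukocytes the sum was higher in 4 of 4 pairs. Of 8 pan-fibroblast markers 5 fell, with a median of -0.38, and of 10 smooth muscle markers 3 rose, with a median of 0.27. Of 6 pericyte markers 1 rose and 1 fell, and of 4 markers of interstitial cells of Cajal 1 rose. The summed level of enteric glia markers was 8.55 to 48.4 CPM in YFP-negative and 5.07 to 6.28 CPM in YFP-positive libraries.

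No marker of epithelium, leukocytes or endothelium was called among 8, 6 and 7 tested (over all genes 0.696% higher, 1.59% lower with the block). Their summed levels were 17.4 to 37.3 against 11.6 to 155 CPM for epithelium, 7.35 to 18.4 against 11.6 to 33.4 CPM for leukocytes, and 43.9 to 111 against 29.5 to 151 CPM for endothelium, in YFP-negative and YFP-positive libraries. The epithelial marker Epcam averaged 1.25 ± 1.24 and 5.48 ± 8.63 CPM (SD, n = 4). Its YFP-positive libraries ran from 0.08 to 18.3 CPM, so that mean does not describe each of them. In 4 of 4 pairs the leukocyte sum was higher in YFP-positive cells. The part of these other cells in the levels of the 5 measured markers was not tested.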

How the data were processed

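Stranded total RNA libraries were made from sorted cells with a low-input kit, per the labels' protocols. Per the submitters' processing notes, cutadapt 3.4, STAR 2.7.3a, featureCounts 2.0.1 and DESeq2 were used with GRCm38; the sources used here do not name the annotation release, feature type or strand setting. Per the file headers, the deposited table holds the raw count of each gene in each library. It also holds the authors' normalised value, a score equal to the count over 1 factor per library, per the file headers and values. The authors' log2 fold changes, each p-value and each adjusted p-value stand in the same deposited table. The log2 fold changes of DESeq2 with the replicate number as a block, run here, correlated with theirs at 0.99999 over 10534 genes (0.89471 without the block), so the block appears to be in their model.

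Sample titles gave the group and the replicate number. Counts were fitted with edgeR 4.0.16 (R 4.3.3): filterByExpr by group, TMM factors, and a robust quasi-likelihood fit with group as its only term. Two-sided p-values were adjusted by Benjamini-Hochberg over 15945 genes and called at 0.05 or below. CPM uses the TMM factors. Replicate numbers were taken to pair the libraries from the data: deviations from the group means correlated at 0.233 to 0.487 for equal numbers and at most 0.0456 for different numbers. Values with the block therefore stand beside those without. Ratios to Pdgfra had 0.5 added to each count and were tested by exact permutation (scipy 1.17.1), with exact sign flips of the pairs added after seeing the data. DESeq2 1.42.0, limma 3.58.1 (voom with quality weights), other size factors and filters, and left-out libraries were alternatives. The scripts were tested on simulated counts with 100 genes changed by a log2 difference of 1.0 and 100 by 0.5. The blocked edgeR fit called 84 and 48 of them, with 9 false calls, and the fit without the block called 0. A gene not called can therefore still differ, and smaller differences were not simulated. Coordinates, exon lengths and overlaps came from GENCODE M21.

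The members and the 16 gene lists were chosen with earlier results of these data known. Named were all 6 members, the 3 genes most like each tested member, up to 2 called genes per direction from lists, and defining markers of other cell types; further lists are given by counts, ranges and medians. A few results under this rule are not reported here. Col1a1, Dcn, Pdgfrb, the genes inside Gm20388 and the overlapping transcripts were named in addition.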

Additional observations from a re-analysis of the deposited data

Results flagged for a closer look

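One level of the 5 measured markers stood away from the others of its group. F3 in YFP-positive replicate 3, at 115 CPM, lay above the other YFP-positive libraries (66.4 to 73.3 CPM) by 0.857 of the group's whole range, where Dixon's 95% critical value for 4 samples is 0.829. In the YFP-negative group replicate 3 was also the highest for F3, at 100.1 CPM. Of 18 groups of 4 values examined this was the only such value, and chance flags about 1 in 20 groups.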

How the results depend on the processing

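No marker was called lower with the block in any setting. Without the block edgeR called 0 of all genes, so the absence of marker calls there says nothing about stability. The block changed the counts of all genes called from 0 higher and 0 lower to 111 and 253, and DESeq2 without it called 2 lower. With the block, genes called higher numbered 168 by DESeq2, 221 by limma voom, 212 with library sizes alone and 253 with any count of at least 1. Genes called lower numbered 392 by voom, 153 with library sizes alone and 420 with any count of at least 1. Leaving out both libraries of a replicate number gave 38 to 130 higher and 119 to 296 lower, lowest for replicate 3. Markers called higher with the block numbered 1, Sox6, under voom, library sizes alone and any count of at least 1, and 0 to 1 when a replicate number was left out. Other subepithelial genes called higher with the block numbered 3 to 9 when a number was left out; that count was added after seeing the data.

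Differences near 0 changed sign. The log2 difference of Pdgfra went from 0.00154 without the block to -0.003653 with it, and without it was -0.005173 by DESeq2 and -0.005164 with RLE factors. Without the block, voom and library sizes alone gave 0.05531 and 0.02944 for F3, and 0.02778 and 0.0432 for Dll1. With each library left out in turn it ran from -0.1001 to 0.1026 for Pdgfra, from -0.2675 to 0.03592 for F3, from -0.3501 to 0.3979 for Dll1 and from -0.1357 to 0.5479 for Frzb. With the block, Pdgfra was at 0.003066 under voom, 0.009061 with upper-quartile factors and 0.08301 with library sizes alone. F3 was at 0.0111 with library sizes alone. Dll1 was at 0.01123 with upper-quartile factors, 0.0845 with library sizes alone and 0.0006446 with any count of at least 1. Left-out replicate numbers gave -0.01983 to 0.01417 for Pdgfra, -0.1729 to 0.008784 for F3 and -0.04893 to 0.06563 for Dll1. For ratios to Pdgfra, left-out libraries gave -0.2321 to 0.06235 for F3, -0.3788 to 0.4322 for Dll1 and -0.1588 to 0.5856 for Frzb. Pairing the ratios, added after seeing the data, gave adjusted exact sign-flip p of 0.833 to 0.875. With complete pairs the mean pair difference equals the difference of the group means, so pairing could not change it and is no check of it. Sox6 stayed positive in all 16 alternatives without the block (0.01 to 0.55) and all 12 with it (0.22 to 0.39), and Frzb in all 12 with it. The cause was not tested. The smallest library held 12481608 counts, so that the 5 measured markers, each with 14010 or more counts in all, were well sampled. The level of Foxl1 could not be read from these counts.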
